A study of Mus musculus with 6 samples.

Results

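Chromatin accessibility at 38 genes of the cell cycle and DNA replication was assayed with ATAC-seq: Tn5 transposase inserts sequencing adapters where DNA is open. Peaks of 6 libraries that shared at least 1 bp were merged into regions, and each region was linked to the protein-coding gene whose span lay nearest to the region's midpoint, within 50 kb. Of 109853 regions with a peak in any library, 223 were linked to 37 of the 38 genes, and 106 of these, at 33 genes, had a peak in all 6 libraries ("shared" regions). No region was linked to Mcm4, and Ccne2, Pcna, Top2a and Aurka had regions but none shared by all libraries. The value of a region in a library is its highest normalised tag count, the number of reads at the peak scaled to library depth. A gene end below means either boundary of a gene's span, the one at its start included. A region was at a gene end when its midpoint lay within 1 kb of such a boundary.

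The libraries came from livers of male mice in which 2 genes were floxed (F/F), of which Ncor1 is one; it encodes the nuclear receptor corepressor NCOR1. The 3 control libraries were from mice given an adeno-associated virus (AAV) with eGFP, and the 3 double-knockout (dKO) libraries from mice with the same floxed genes given AAV-Cre, the recombinase that removes floxed DNA. Tissue was taken on day 5 after AAV at zeitgeber time 10, that is 10 h after lights on, and nuclei positive for the hepatocyte factor HNF4a were sorted and prepared with the Omni-ATAC protocol. The labels give neither the age of the mice nor the promoter that drives Cre. They also do not say whether the libraries of a group came from separate animals, and the spread behind each p-value may therefore be partly technical.

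Most hepatocytes of an adult liver rest outside the cell cycle and can enter it again after injury. Cyclins and their kinases drive the cycle, and the retinoblastoma family (Rb1, Rbl1, Rbl2) holds back the E2F transcription factors, which switch on genes for replication. The MCM proteins form the helicase that CDC6 and CDT1 load onto replication origins, RRM2 makes deoxyribonucleotides, and PLK1, the Aurora kinases and BUB1 act in mitosis. Promoters of these genes often hold E2F sites, the cell cycle homology region (CHR) and CCAAT boxes, which bind NF-Y.

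The promoters of the 4 genes with the smallest p among called regions at a gene start (Mcm3, E2f3, Mcm5 and Cdt1) are shown because accessibility at these starts was lower in all dKO libraries. Each line gives the 250 bases before the annotated start, 5′ to 3′ in the direction of the gene, from RefSeq on GRCm38.p6 (mm10): Mcm3 at chr1:20820313-20820562 on the minus strand, E2f3 at chr13:29986064-29986313 on the minus strand, Mcm5 at chr8:75109259-75109508 on the plus strand, and Cdt1 at chr8:122567765-122568014 on the plus strand. Capitals mark matches on either strand to TTTCCCGC or TTTGGCGC (E2F), TTTGAA (CHR), CCAAT, or CACGTG (E-box).
Mcm3: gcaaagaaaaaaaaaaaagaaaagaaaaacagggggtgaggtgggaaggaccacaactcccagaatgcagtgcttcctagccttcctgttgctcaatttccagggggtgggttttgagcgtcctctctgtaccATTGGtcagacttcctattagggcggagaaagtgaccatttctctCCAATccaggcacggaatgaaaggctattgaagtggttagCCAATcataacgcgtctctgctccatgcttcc
E2f3: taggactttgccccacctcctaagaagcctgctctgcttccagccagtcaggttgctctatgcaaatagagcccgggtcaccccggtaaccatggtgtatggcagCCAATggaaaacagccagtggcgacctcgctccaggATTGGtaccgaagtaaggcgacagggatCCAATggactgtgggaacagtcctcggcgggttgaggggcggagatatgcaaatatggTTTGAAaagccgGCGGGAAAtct
Mcm5: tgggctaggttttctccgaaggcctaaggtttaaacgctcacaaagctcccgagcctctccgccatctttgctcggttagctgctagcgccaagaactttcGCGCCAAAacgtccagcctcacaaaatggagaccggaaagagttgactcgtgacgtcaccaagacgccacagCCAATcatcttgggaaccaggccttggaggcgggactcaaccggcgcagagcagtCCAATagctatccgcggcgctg
Cdt1: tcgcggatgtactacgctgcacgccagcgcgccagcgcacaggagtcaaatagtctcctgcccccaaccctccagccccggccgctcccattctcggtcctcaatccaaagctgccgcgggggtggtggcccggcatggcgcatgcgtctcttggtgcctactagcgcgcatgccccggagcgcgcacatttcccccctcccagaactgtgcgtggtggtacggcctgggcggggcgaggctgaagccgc

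The G and C content of these stretches was 48.0% at Mcm3, 55.6% at E2f3, 56.8% at Mcm5 and 68.4% at Cdt1. Counted from the first base of the match to the start, CCAAT lay at -117 (on the opposite strand), -72 and -32 at Mcm3. At E2f3 it lay at -145, -109 (opposite strand) and -81, with TTTGAA at -23 and TTTCCCGC on the opposite strand at -11. The Mcm5 stretch held TTTGGCGC on the opposite strand at -149 and CCAAT at -77 and -22. The Cdt1 stretch held none of these letters; its window had TTTGGCGC 32 bases after the start, and the Mcm3 window had both E2F words, at 19 and 38 bases after the start.

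Between 68316 and 84614 peaks were listed per library, and 135 to 183 of the 223 regions had a peak in a given library. The lists fell into a pair of classes by peak width: control 1, dKO 1 and dKO 2 had narrow peaks of one fixed width, while control 2 (166 bp) and control 3 and dKO 3 (172 bp each) had wide ones, so that width class and group overlap in part. On the first principal component over the 106 shared regions (57.2% of the variance), controls 1, 2 and 3 lay at -1.98, -0.91 and -2.34 and dKO 1, 2 and 3 at 2.85, 1.93 and 0.45: dKO 3 was the dKO library nearest to the controls. All 7 hepatocyte markers had a peak at a gene start or end, with a summed level of 292.2 to 498.1 in control and 170 to 354.7 in dKO libraries (a peak not listed counts as 0 in these sums). Over the 29 shared regions linked to the hepatocyte markers, 15 were lower in dKO (51.7%, against 11.6% of all shared regions) and 0 higher, with a median log2 fold change of -0.55, so these markers moved with the group. At a gene start or end, no Kupffer cell, lymphocyte or neutrophil marker had a peak. The counts were 0 of 6, 0 of 6 and 0 of 5 genes, with Clec4f, Adgre1, Cd3e, Cd79a and Ly6g among them. Elsewhere these lists had 2, 3 and 2 shared regions, of which 1 Kupffer cell region was lower and none higher. Of the cholangiocyte markers 2 of 6 had a peak at a gene start or end (13.15 to 20 in control, 19.91 to 29 in dKO, with Krt19 and Krt7 at none). Of the stellate cell markers 2 of 6 did (23.25 to 34.7 and 18.61 to 32.7, with Des and Pdgfrb at none). Of the endothelial markers 3 of 6 did (3.92 to 9.74 and 4.26 to 13.86, with Stab2 and Pecam1 at none). Des, Pdgfrb, Stab2 and Pecam1 had peaks elsewhere in every library. The endothelial list had 26 shared regions, 4 lower (15.4%) and 1 higher (3.85%), against 11.6% and 8.19% of all shared regions. The stellate cell list had 9 and the cholangiocyte list 8, each with 0 lower and 1 higher (11.1% and 12.5%). The part of these other cell types in the results was not tested. Ncor1 had 6 shared regions, of which 1 was higher in dKO and none lower; which exons were floxed is not stated in the labels, so this does not check the deletion. In bulk nuclei, fewer open nuclei and less opening per nucleus cannot be told apart.

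Of the 106 shared regions of the cell cycle genes, 12 were lower and 4 higher in dKO (limma with Benjamini-Hochberg adjustment over all 51749 shared regions, threshold 0.05), and 90 were not called. The lower share, 11.3%, is close to the 11.6% of all shared regions called lower, and the higher share, 3.77%, is below the 8.19% of all called higher. The median log2 fold change, dKO minus control, was -0.02 over the members and -0.02 over all shared regions. The dKO libraries lay below every control in 13 member regions and above every control in 8, against 15.8% and 12.6% of all shared regions. The counts depended on which libraries were used, for the members as for all regions: without dKO 1 there were 3 lower and 0 higher member regions (3.98% and 3.16% of all shared regions), and without dKO 2 likewise 3 and 0 (2.71% and 2.43%). Without dKO 3, the count was 17 lower and 6 higher (15.7% and 10% of all). The fold changes moved less than the calls: without dKO 2 all 16 stayed within 1.5 times their value on all 6 libraries, and without dKO 1 15 of 16 did, E2f7 being the exception. These fits reuse libraries on which the 16 were called, so the kept fold changes add no separate support. Leaving out control 1 gave 8 and 5 (8.03% and 6.4% of all), and leaving out control 3 gave 9 and 1 (8.62% and 5.65%).

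By role, 15 shared regions belonged to replication genes (3 lower, 20%, and 2 higher, 13.3%, median log2 fold change 0.19). Genes of transcription control had 41 (5 lower, 12.2%, and 1 higher, 2.44%, median 0.00). Cyclins and their kinases had 39 (2 lower, 5.13%, and 1 higher, 2.56%, median -0.05). Mitosis and chromosome genes had 11 (2 lower, 18.2%, and 0 higher, median -0.05). Of all shared regions, 11.6% were lower and 8.19% higher. In each of the 12 lower regions dKO 3 had the highest value of the dKO libraries, and 8 of the 12 had no overlap between groups. All 4 higher regions were without overlap. Calls were made on the group difference, so these counts of separation add no separate support. Over all shared regions too, dKO 3 was the dKO library nearest to the controls on the first principal component. Its score there was 12.7, against 63.5 for dKO 1 and 53.6 for dKO 2, with the controls at -48.4 to -36.3.

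**Figure D1:**
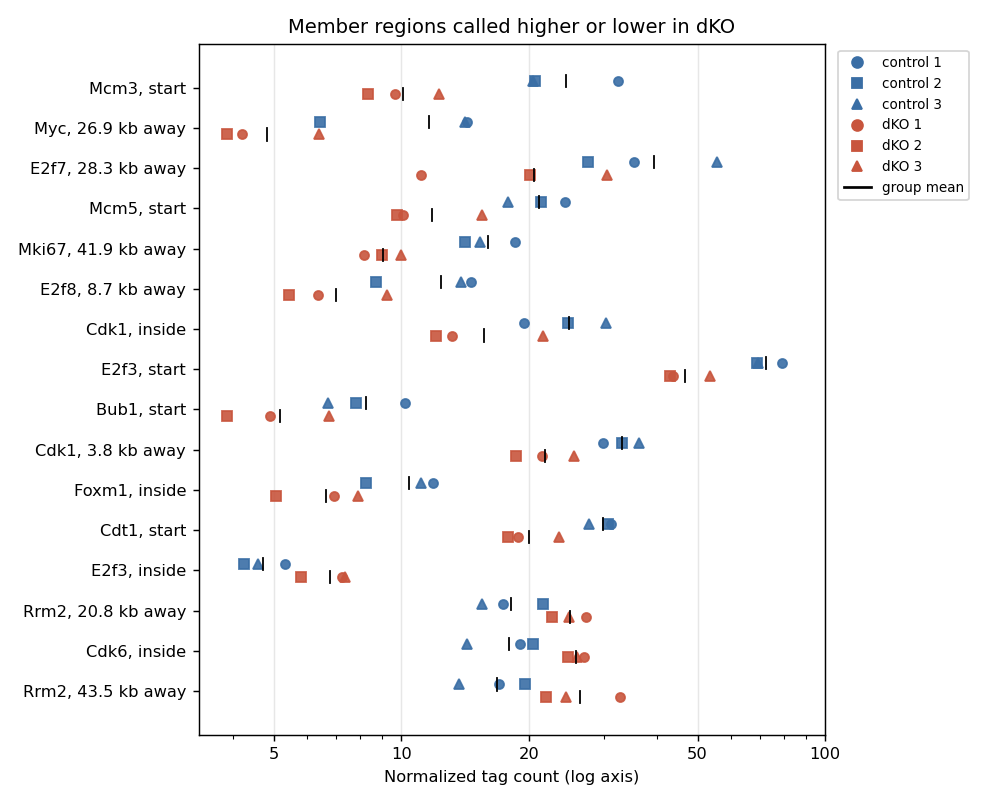
Normalised tag count (log axis) of the 16 called member regions in each library; blue points are control and red points dKO libraries, the shape gives the replicate number, and black ticks are group means. In the 12 lower regions the red mean lies left of the blue one and dKO 3 is the highest red point, and the 4 higher regions have no overlap between groups.

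The replication genes held the lowest fold change of all shared member regions. At the start of Mcm3, a subunit of the replicative helicase, one region (chr1:20820181-20820482) spanned the gene start. Its normalised tag count was 32.4, 20.7 and 20.4 in control 1, 2 and 3 and 9.68, 8.36 and 12.3 in dKO 1, 2 and 3. All dKO libraries lay below all controls, with control 1 the highest of the 6. The mean was 24.5 ± 6.84 (SD, n = 3) in control and 10.1 ± 2.01 (SD, n = 3) in dKO, a log2 fold change of -1.12 (SE 0.18, adjusted p = 0.00211). The call held in all 15 alternatives in which the region was tested, with adjusted p between 2.74e-05 and 0.0225. The peaks did not sit at one place: the centres were 116, 56 and 52 bp before the start in control 1, 2 and 3 and 47 bp before it in dKO 3, but 76 and 77 bp inside the gene in dKO 1 and dKO 2. When peaks had to share 50 bp, the region split in 2 and could not be tested; the value of dKO 1 and dKO 2 was thus read from a neighbouring position.

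Mcm5 encodes another helicase subunit. The region at its start (chr8:75109285-75109551) had 24.3, 21.3 and 17.8 in the controls and 10.1, 9.77 and 15.5 in dKO 1, 2 and 3, again without overlap. This gave a log2 fold change of -0.75 (SE 0.17, adjusted p = 0.0085, 0.00169 to 0.0536 over the alternatives), and the call was lost without dKO 1 (0.0509) or dKO 2 (0.0536). Its other 2 shared regions, at 750 bp and 4256 bp from the gene, had log2 fold changes of 0.23 and 0.19 and were not called.

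CDT1 loads the helicase at origins. The region at the Cdt1 start (chr8:122567713-122568025) had 31.3, 30.8 and 27.7 in the controls and 18.8, 17.8 and 23.5 in dKO 1, 2 and 3. Controls differed little (29.9 ± 1.95, SD, n = 3), and every dKO library was lower (20 ± 3.04, SD, n = 3). The groups differed by -0.50 on the log2 scale (SE 0.12, adjusted p = 0.0129, 0.00764 to 0.0716 over the alternatives), and the call was lost without dKO 1 (0.0716) or dKO 2 (0.0654).

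Rrm2, a subunit of ribonucleotide reductase, had called regions of the opposite direction to Mcm3, Mcm5 and Cdt1, and these lay far from the gene. The region 43460 bp away (chr12:24757509-24757703) had 17.0, 19.6 and 13.7 in the controls and 32.8, 21.9 and 24.4 in dKO 1, 2 and 3. The lowest dKO library was above the highest control, a log2 fold change of 0.68 (SE 0.17, adjusted p = 0.0144, 0.0012 to 0.0955 over the alternatives); the call was lost without dKO 1 (0.0955) or dKO 2 (0.065). A second region 20818 bp away was also higher, with a log2 fold change of 0.51 (SE 0.15, adjusted p = 0.0291). That call was lost without control 1 (0.0653), control 3 (0.095), dKO 1 (0.133) or dKO 2 (0.134), and without centring (0.104), within a range of 0.00911 to 0.134 over the alternatives. The start of Rrm2 itself had peaks in 4 libraries, 26.6 and 30.3 in control 1 and 2 and 21.7 and 21.3 in dKO 1 and 2, and was not tested.

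Of the other helicase and loading genes, none had a called region. At the Mcm6 start the values were 27.8, 16.3 and 13.0 in the controls and 11.5, 12.1 and 14.2 in dKO, a log2 fold change of -0.43 (SE 0.22, adjusted p = 0.181); control 1 stood above the rest and the groups overlapped. The Mcm7 region of highest mean in this role (chr5:138171043-138171240, at a start) had 39.7, 32.9 and 26.1 in the controls and 27.9, 24.1 and 31.0 in dKO, a log2 fold change of -0.17 (adjusted p = 0.435). Its other start region, whose window also holds the start of Ap4m1, was at 0.19 (0.411). The Mcm2 start was at -0.11 (0.547), and the 2 shared Cdc6 regions at -0.14 and 0.36. PCNA is the sliding clamp of the replication fork; its only region, inside the gene, had peaks in control 1 (24.5), dKO 1 (16.7) and dKO 2 (16.5), the libraries with narrow peaks.

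Among genes of transcription control, E2f3 encodes an E2F activator. The region before its start (chr13:29986175-29986410) had 79.1, 69.1 and 69.5 in the controls and 43.7, 43.1 and 53.4 in dKO 1, 2 and 3. It was one of the strongest regions at a member's start, and the groups lay well apart (72.6 ± 5.66 and 46.7 ± 5.78, SD, n = 3 each). The log2 fold change was -0.57 (SE 0.11, adjusted p = 0.00439), and the call held in all 18 alternatives, with adjusted p between 0.00251 and 0.0324. Peak centres lay 198 to 251 bp before the start in the controls and 213 to 293 bp before it in dKO. The gene's second start region lay inside the gene span, 1601 bp from the span's boundary on the side of the first start region. It was at -0.11 (0.536). A weak region inside E2f3 (chr13:29957084-29957338) was higher in dKO: 5.32, 4.26 and 4.6 in the controls and 7.23, 5.80 and 7.35 in dKO, a log2 fold change of 0.50 (SE 0.14, adjusted p = 0.0268). That call was lost without control 2 (0.0932), control 3 (0.0757), dKO 1 (0.101) or dKO 2 (0.0961), without centring (0.0952) and with quantile normalisation (0.086), and its adjusted p ranged from 0.0184 to 0.101.

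E2F7 and E2F8 repress E2F targets. A region 28337 bp from E2f7 (chr10:110716972-110717232) had 35.4, 27.5 and 55.5 in the controls and 11.1, 20.1 and 30.5 in dKO, a log2 fold change of -0.89 (SE 0.28, adjusted p = 0.036). The spread within groups was wide (39.5 ± 14.4 and 20.6 ± 9.71, SD, n = 3 each), and dKO 3 was above control 2. The call was lost without control 1 (0.0821), control 3 (0.128), dKO 1 (0.164) or dKO 2 (0.0789), with quantile normalisation (0.0783), with peak width as a term (0.0669), without the trend (0.06) and with only regions averaging 20 or more (0.072); its range was 0.000386 to 0.164. Without dKO 1 the log2 fold change was -0.52. The E2f7 region of highest mean in this role, 37906 bp away (chr10:110707442-110707624), had 70.1, 77.5 and 88.0 in the controls and 57.2, 53.1 and 72.4 in dKO, a log2 fold change of -0.31 (SE 0.11, adjusted p = 0.068). The other 6 shared E2f7 regions were not called.

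At E2f8, a region 8690 bp from the gene (chr7:48857651-48857827) had 14.6, 8.71 and 13.8 in the controls and 6.35, 5.44 and 9.23 in dKO. Only dKO 3 and control 2 overlapped. On the log2 scale dKO differed by -0.68 (SE 0.20, adjusted p = 0.0286, 0.00545 to 0.13 over the alternatives), lost without control 1 (0.0996), control 3 (0.0869), dKO 1 (0.11) or dKO 2 (0.13). The strongest E2f8 region, inside the gene, was at -0.22 (0.433).

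Myc encodes the growth-related transcription factor MYC. A region 26921 bp from it (chr15:62017136-62017428) had 14.3, 6.41 and 14.1 in the controls and 4.20, 3.87 and 6.38 in dKO 1, 2 and 3. Control 2 and dKO 3 nearly met, and the other libraries lay well apart. Its log2 fold change was -1.0 (SE 0.24, adjusted p = 0.0119, 0.000325 to 0.066 over the alternatives), lost without control 1 (0.0523), dKO 1 (0.0605) or dKO 2 (0.066); it split under the 50 bp overlap and was not tested there. By contrast, a region 212 bp from the lower-coordinate boundary of the Myc span was among the 6 strongest at a member's start or end. No start was assigned to Myc, so this region was not classed as a start region. It had 39.3, 31.9 and 48.4 in the controls and 39.2, 29.4 and 47.3 in dKO, a log2 fold change of 0.01 (SE 0.14, adjusted p = 0.966).

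FOXM1 drives mitotic genes. The only Foxm1 region, inside the gene (chr6:128370101-128370318), had 11.9, 8.23 and 11.1 in the controls and 6.94, 5.07 and 7.90 in dKO, a log2 fold change of -0.52 (SE 0.17, adjusted p = 0.0462, 0.0216 to 0.195 over the alternatives). The highest dKO library was just under the lowest control. The call was lost without control 1 (0.131), control 3 (0.119), dKO 1 (0.105), dKO 2 (0.195) or dKO 3 (0.0517), and when regions of at least 3 libraries were tested (0.0549).

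Rb1, Rbl1 and Rbl2, which restrain E2F, had no called region among 11 shared ones. The Rb1 region 21 bp from the higher-coordinate boundary of the gene span had 49.9, 53.4 and 49.9 in the controls and 39.9, 42.9 and 60.5 in dKO. Its log2 fold change was -0.06 (SE 0.12, adjusted p = 0.78), and no start was assigned to Rb1. E2f1 was not called at its start (0.13, 0.456) or beside it (0.10, 0.637), and the 4 shared E2f2 regions ranged from -0.42 to 0.20 without a call.

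Cdk1, the kinase of mitotic entry, held both lower regions among cyclins and kinases. The region 3781 bp outside the gene (chr10:69331269-69331461) had 29.9, 33.2 and 36.3 in the controls and 21.5, 18.6 and 25.5 in dKO 1, 2 and 3. The groups did not overlap (33.1 ± 3.20 and 21.9 ± 3.46, SD, n = 3 each). The log2 fold change was -0.52 (SE 0.12, adjusted p = 0.00963, 0.00443 to 0.0645 over the alternatives), lost without dKO 2 (0.0645). It was the one lower region whose fall was larger among the wide-peak libraries (-0.53) than among the narrow ones (-0.43).

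The second Cdk1 region, inside the gene (chr10:69341724-69342064), had 19.5, 24.7 and 30.4 in the controls and 13.2, 12.1 and 21.6 in dKO, a log2 fold change of -0.60 (SE 0.18, adjusted p = 0.0311). Here the highest peaks of the groups sat at different places, with dKO centres on average 171.3 bp from control centres and 232 bp between the outermost. The call was lost without control 2 (0.0594), control 3 (0.117), dKO 1 (0.141) or dKO 2 (0.143), with quantile normalisation (0.0509), with only regions averaging 20 or more (0.103) and among peaks of at least median score (0.0602); its range was 0.00306 to 0.143. The Cdk1 start had 26.7, 26.6 and 30.7 in the controls and 21.2, 19 and 26.2 in dKO, without overlap but not called (-0.27, SE 0.12, adjusted p = 0.127).

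Cdk6, a partner of D cyclins, had the most regions of all members: 29, of which 13 were shared, with log2 fold changes from -0.42 to 0.58. Only 1 was called, inside the gene (chr5:3466119-3466341), with 19, 20.4 and 14.3 in the controls and 26.9, 24.7 and 25.9 in dKO. The dKO libraries were close together (25.8 ± 1.1, SD, n = 3) and above the controls (17.9 ± 3.20). The log2 fold change was 0.58 (SE 0.15, adjusted p = 0.0182, 0.00305 to 0.113 over the alternatives), lost without control 3 (0.0618), dKO 1 (0.0817) or dKO 2 (0.113) and without centring (0.0562).

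The strongest cyclin region was at Ccna2, the S-phase cyclin (chr3:36572138-36572317, inside the gene and 811 bp from a gene end): 84.4, 91.2 and 87.7 in the controls and 79.7, 81.4 and 106.1 in dKO, a log2 fold change of 0.07 (SE 0.11, adjusted p = 0.68). At the start of Ccne1, a G1/S cyclin, the values were 78.6, 70.8 and 76.9 in the controls and 58.6, 54.4 and 80.0 in dKO, a log2 fold change of -0.18 (SE 0.11, adjusted p = 0.259). In both genes dKO 3 was the highest of all 6 libraries and dKO 1 and dKO 2 were the lowest. At the Cdk4 start the values were 52.9, 40.8 and 40.5 in the controls and 33.0, 32.4 and 40.8 in dKO, a log2 fold change of -0.26 (SE 0.13, adjusted p = 0.157). The D cyclins differed in sign without a call: the 5 shared Ccnd3 regions lay between -0.46 and -0.22, the 3 of Ccnd1 between 0.07 and 0.26, and the 2 of Ccnd2 at -0.05 and 0.27. The mitotic cyclin starts were at 0.06 (Ccnb1, 0.777) and -0.42 (Ccnb2, 0.096).

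Mki67 encodes the proliferation marker Ki-67. A region 41918 bp from it (chr7:135758272-135758465) had 18.5, 14.1 and 15.3 in the controls and 8.16, 8.99 and 10 in dKO 1, 2 and 3. The groups lay apart (16.0 ± 2.27 and 9.05 ± 0.921, SD, n = 3 each), and peak centres agreed within 24 bp. With a log2 fold change of -0.69 the region was called lower (SE 0.17, adjusted p = 0.0119, 0.00397 to 0.0615 over the alternatives), lost without dKO 1 (0.0615). The Mki67 start was not called: 17.6, 17.0 and 16.0 in the controls and 13.8, 13.5 and 16.9 in dKO, a log2 fold change of -0.13 (SE 0.14, adjusted p = 0.549). The other 6 shared Mki67 regions were not called either.

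BUB1 is a kinase of the spindle checkpoint. The Bub1 start (chr2:127831840-127832068) was weak, with 10.2, 7.80 and 6.73 in the controls and 4.90, 3.87 and 6.74 in dKO. Control 3 and dKO 3 were level. The log2 fold change was -0.53 (SE 0.17, adjusted p = 0.0459, 0.0239 to 0.195 over the alternatives). The call was lost without control 1 (0.139), control 2 (0.0705), dKO 1 (0.142) or dKO 2 (0.195), with a pseudocount of 5 (0.0553), when regions of at least 3 libraries were tested (0.0518) and with peaks summed (0.0501).

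Aurkb, a kinase of the chromosomal passenger complex, had the strongest region of this role, 4477 bp away (chr11:69041037-69041257), with 35.2, 72.3 and 86.3 in the controls and 44.0, 38.9 and 85.5 in dKO. These values followed peak width and not group: the 3 narrow-peak libraries had 35.2, 44.0 and 38.9. Between groups the log2 fold change was -0.13 (SE 0.27, adjusted p = 0.762). The start of Plk1 was at 0.02 (0.951). Aurka had 1 region, with peaks of 5.69, 5.70 and 10.3 in the controls and 5.95 in dKO 3 alone.

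**Figure D2:**
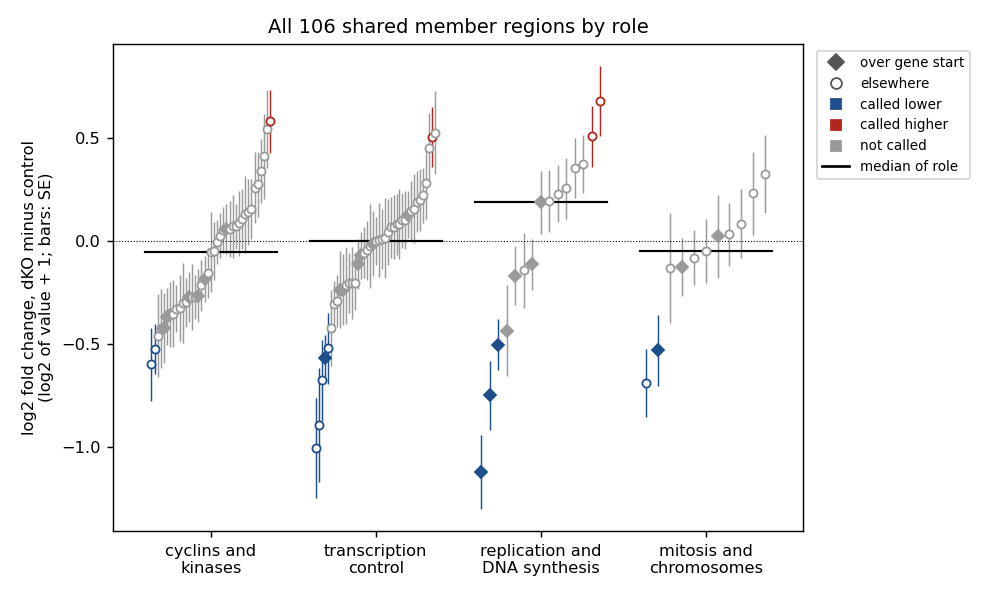
Log2 fold change (dKO minus control) with its SE for the shared member regions, by role of the gene; blue marks regions called lower, red higher and grey not called, filled diamonds are start regions, open circles all others, and the black line of each role is its median. Replication genes hold both the lowest value (-1.12, Mcm3) and the highest (0.68, Rrm2).

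A region was counted at a gene start when it overlapped the RefSeq window of its own gene, 250 bases before to 50 after the start. Such windows were present for 29 of the 38 genes; for the 9 others (Ccnd1, Ccnd2, Ccne2, Ccna2, Aurkb, Mcm4, Myc, Foxm1 and Rb1) no start was assigned. The members had 24 shared start regions at 20 genes: 5 were lower (20.8%), against 11.0% of all 7168 shared start regions, and 0 higher, against 2.02%. The 5 lower ones were Mcm3, E2f3, Mcm5, Cdt1 and Bub1. Of the 24, 20 had a log2 fold change below 0, and of all 7168 shared start regions 5139 did. The median was -0.24 for the members and -0.13 for all start regions. Of the 82 other shared member regions, 7 were lower (8.54%) and 4 higher (4.88%), against 11.0% and 9.38% of all regions linked away from a start, with a median of 0.04.

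The contrast at the starts moved with the scaling, the filter and the libraries used. With quantile normalisation 5 of 24 member starts were lower against 5.32% of all starts, with medians of -0.15 and -0.01. With only regions averaging 20 or more, 2 of 15 member starts were lower against 5.28% of all, with medians of -0.04 and -0.01. Leaving out control 1 gave 4 of 24 lower against 4.84% of all, and medians of -0.14 and -0.10. Leaving out dKO 1 gave medians of -0.14 and -0.08. Without dKO 1 and without dKO 2, 2 of 24 member starts were lower each time, against 2.26% and 1.17% of all starts. Without dKO 3, 7 of 24 were, against 21.2%. Within the narrow-peak libraries the median over the member starts was -0.40, and over all starts -0.25. Within the wide-peak libraries it was -0.04 and 0.02.

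**Figure D3:**
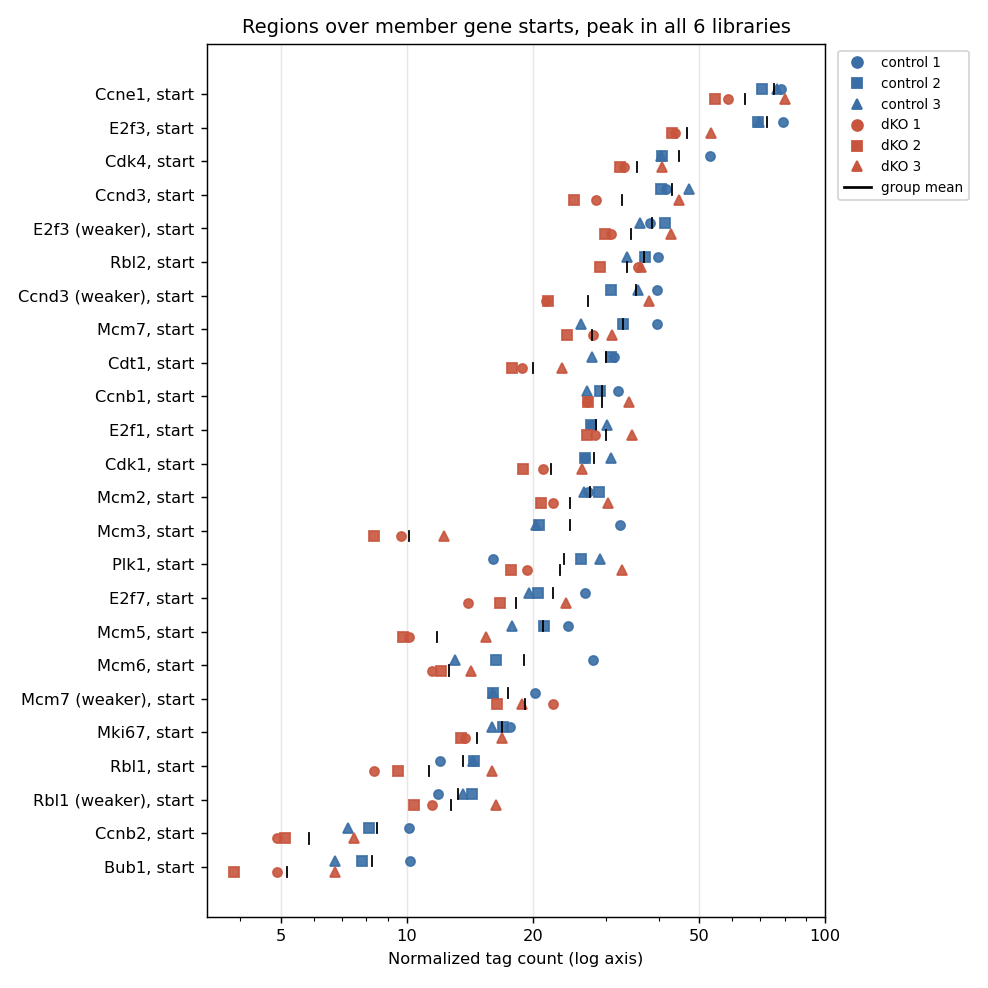
Normalised tag count (log axis) at the 24 shared start regions of member genes in each library; blue points are control and red points dKO libraries, shapes give the replicate number, black ticks are group means, and "weaker" marks the lower of 2 start regions of a gene. Red points sit left of all blue ones at Mcm3, E2f3, Mcm5 and Cdt1, and at the Cdk1 start, which was not called; at Bub1 control 3 and dKO 3 are level.

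Motif matches were counted in the 33 member windows and in all 32851 windows of 300 bases in the table, on both strands; the comparison with accessibility was chosen after the values were seen. TTTCCCGC was in 6 member windows (18.2%, against 1.07% of all), TTTGGCGC in 5 (15.2%, 0.514%), TTTGAA in 11 (33.3%, 17.9%), CCAAT in 23 (69.7%, 37.4%) and CACGTG in 3 (9.09%, 7.15%). No matches of different words overlapped in the windows of the 5 genes with a lower start. A match describes letters only and shows no binding. Of the 7 shared member starts with either E2F word, 4 were lower (Mcm3, E2f3, Mcm5 and Cdt1, 57.1%), with a median of -0.50. The other 3 (Mcm6, E2f7 and Mcm7) were not called. At Mcm3 and Mcm5 the E2F words lay inside the region called lower. At E2f3 and Cdt1 the word lay in the window but outside that region. Of the 17 without, 1 was lower (Bub1; 5.88%), with a median of -0.17. Over all genes other than the members, 32 of 230 starts with an E2F word were lower (13.9%), against 748 of 6914 without one (10.8%). For CCAAT the counts over all genes were 525 of 2802 with the word (18.7%, median -0.21) and 260 of 4366 without (5.96%, median -0.08). Among the members, 4 of 15 starts with CCAAT were lower, and 1 of 9 without.

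**Figure D4:**
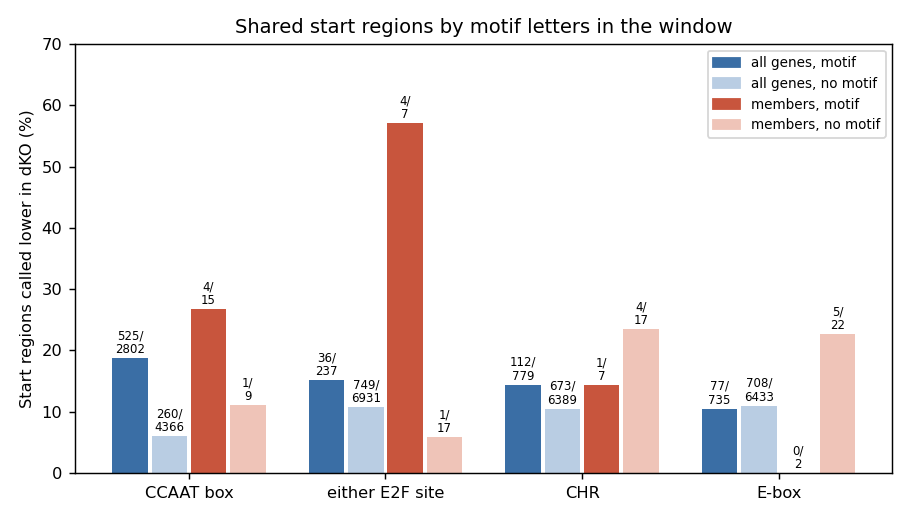
Share of shared start regions called lower in dKO (percent, bars from 0), for windows with and without CCAAT, either E2F word, TTTGAA (CHR) and CACGTG (E-box), over all genes (blue) and over the members (orange); the count called and the number of regions stand above each bar. Among the bars drawn the highest is that of members with either E2F word, 4 of 7, and over all genes the widest gap is for CCAAT, 525 of 2802 against 260 of 4366.

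In 2 member regions all 3 dKO libraries had a peak and no control had one, and in 0 the reverse, against 1.57% and 1.34% of all regions. One lay 284 bp from Top2a, the topoisomerase of dividing cells, over its start window (chr11:99024396-99024571), with 4.02, 3.66 and 4.25 in dKO 1, 2 and 3. Other Top2a peaks stood close by, at 8.90, 8.97, 4.78, 6.06 and 9.11 in control 2, control 3 and dKO 1 to 3 in one region, and at 8.73 in control 1 in another, so that all 6 libraries had a peak at this start. The second lay inside Cdk6 (chr5:3455782-3455958), with 11.2, 10.3 and 11.5 in dKO 1, 2 and 3 (11.0 ± 0.624, SD, n = 3). A control with no listed peak is not shown to be closed there, since the lowest listed tag counts were 2.78 to 3.2 in control libraries and a peak also had to stand at least 4.0-fold over its surroundings.

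The 117 member regions without a peak in all libraries followed peak width as well: 55 had peaks only in narrow-peak libraries and 5 only in wide-peak ones. Of all 117, 62 had more dKO than control libraries, 29 more control and 26 equal numbers, and 13 were found in dKO 1 and dKO 2 alone. The narrow-peak lists were also the longer ones, with 81667 to 84614 peaks against 68316 to 72417 in the wide-peak lists. The same counts over all incomplete regions are not given here, so these are not read as traits of the members. Not every incomplete region followed width: the strongest region of Ccne2, a G1/S cyclin, had 60.5 in control 1, 37.1 in control 3 and 40.6, 41.4 and 41.7 in dKO, with no peak listed in control 2.

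The called regions were also compared within each width class, where 1 arm is a single library and no test was made. Of the 12 lower regions, all had the same sign in both width classes, and 11 fell further among the narrow-peak libraries (dKO 1 and dKO 2 against control 1) than among the wide ones (dKO 3 against control 2 and control 3). The 12 were called lower on these same libraries, so the shared sign adds no separate support. The same counts over all lower regions are not given here, so these are not read as traits of the members. At Mcm3 the log2 difference was -1.61 in the narrow class and -0.79 in the wide class, at E2f3 -0.72 and -0.47, at Mcm5 -1.08 and -0.41, and at Bub1 -0.93 and -0.19. The larger difference in dKO 1 and dKO 2 and the peak width cannot be told apart, since dKO 3 is the only wide-peak dKO library. Peak centres of the 12 lower regions were spread over a median of 107.5 bp across libraries, and 6 of the 12 exceeded 100 bp (Mcm3, Mcm5, Cdt1, E2f7, Myc and the Cdk1 region inside the gene), against a median of 61.0 bp and 19 of 90 for regions not called; its part in the lower values was not tested.

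**Figure D5:**
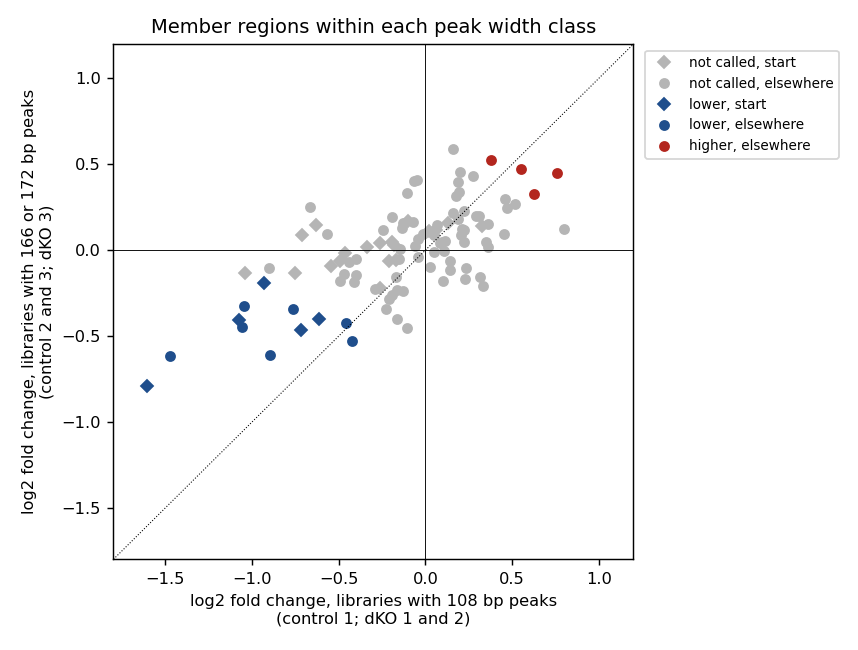
Log2 fold change (dKO minus control) of the shared member regions within the narrow-peak libraries (x axis) against that within the libraries with 166 or 172 bp peaks (y axis); blue marks regions called lower, red higher and grey not called, diamonds are start regions, circles all others, and the dotted line is equality. All called lower regions, which were called on these same libraries, lie where both values are below 0, and 11 of the 12 lie farther from 0 on the x axis.

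Other genes of the same pathways were counted in 5 lists. The CDK inhibitors, which block the kinases above, had 17 shared regions at 6 of 7 genes: 5 were higher (29.4%, against 8.19% of all shared regions) and 0 lower, with a median log2 fold change of 0.22. Of the 5, 3 belonged to Cdkn1a, which encodes p21, and so share a locus; the others were at Cdkn1c and Cdkn2a. At the Cdkn1a start (chr17:29093617-29093848) the values were 14.3, 12.7 and 9.92 in the controls and 21.5, 16.0 and 20.4 in dKO 1, 2 and 3. The groups did not overlap, and the log2 fold change was 0.67 (SE 0.16, adjusted p = 0.0124), with 0.49 in the narrow and 0.71 in the wide class. A second Cdkn1a region inside the gene was at 0.49 (SE 0.14, adjusted p = 0.0271).

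The further replication genes had 42 shared regions, 5 lower (11.9%) and 2 higher (4.76%), with a median of -0.13. Of all shared regions, 11.6% were lower and 8.19% higher. The start of Orc6, a subunit of the origin recognition complex, had 22.2, 15.3 and 15.5 in the controls and 9.21, 7.21 and 10 in dKO, a log2 fold change of -0.86 (SE 0.17, adjusted p = 0.00546). A region 2417 bp from Rpa1, a single-strand DNA binding protein, was higher (0.98, SE 0.19, adjusted p = 0.00492). The further mitosis genes had 71 shared regions, 9 lower (12.7%) and 1 higher (1.41%), with a median of -0.07. The smallest p were inside Mad1l1 (-1.17, adjusted p = 0.0042) and Ccnf (-0.81, adjusted p = 0.00474).

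Other cyclins and kinases had 71 shared regions, 12 lower (16.9%) and 8 higher (11.3%), with a median of 0.02. Of all shared regions, 11.6% were lower and 8.19% higher. A region 32908 bp from Ccng2, a cyclin linked to growth arrest, had 5.59, 5.94 and 6.11 in the controls and 19.9, 17.4 and 14.6 in dKO. This rise, a log2 fold change of 1.46 (SE 0.18, adjusted p = 0.000727), was the largest in any of the 5 lists or among the members. A region 35874 bp from Cdk19, a kinase of the Mediator complex, was lower (-0.94, SE 0.13, adjusted p = 0.0012). The E2F, DP and MuvB genes not among the 38 had 30 shared regions, 2 lower (6.67%) and 1 higher (3.33%), with a median of -0.02. A region inside Tfdp1, an E2F partner, was higher (0.58, adjusted p = 0.0221). The start of Lin52, a MuvB subunit that shares its window with Aldh6a1, was lower (-0.38, adjusted p = 0.0269). These lists were not rerun under the alternatives.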

How the data were processed

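ATAC-seq libraries (3 control, 3 dKO) were analysed from the deposited peak lists, 1 per library; peaks were not pooled. Tools named in the submitters' processing notes are HOMER 4.11, SAMtools 1.10, Picard and Trim Galore 0.6.4, with the build mm10; aligner, duplicate filter, cut-site shift, peak options and depth: not given in the sources used here. Without depth, no counting interval can be given. Per the file headers, the deposited columns are a normalized tag count (a signal the authors scaled to depth), a peak score, a p-value, the fraction called focus ratio, and ratios giving the fold over local background and the clonal fold. Only the tag count was analysed, and the score was used as a filter.

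Peaks on chromosomes 1 to 19 and X sharing at least 1 bp were merged (Python 3.11.15, pandas 2.3.3) and linked to RefSeq genes of GRCm38.p6 (mm10) within 50 kb. Shared regions were fitted with limma 3.58.1 (R 4.3.3) with a trend, on log2(value + 1), each library centred on its median, group as the only term, 2-sided. The pseudocount makes fold changes of weak regions too small. Adjusted p-values are Benjamini-Hochberg over all 51749 shared regions. The fit was tested on simulated data. Alternatives covered pseudocount, scaling, filters, overlap, trend, peak width, a replicate block and leaving out each library.

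Named regions are, per member gene, the called region of smallest p, regions with peaks in 1 group only, the strongest per role and the 6 strongest at a start or gene end, and 2 regions of smallest p per further list; other regions shown were chosen after their values were seen, as were the peak centres. Members and lists were chosen with earlier results of these data known. Peak sequences were not used here.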

Additional observations from a re-analysis of the deposited data

How the results depend on the processing

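The 16 called member regions kept their direction in each alternative in which they were tested. The alternatives reuse the libraries on which these regions were called, so the kept direction adds no separate support. Of the 16, 8 were not tested with only regions averaging 20 or more, 9 with the score filter and 3 with the 50 bp overlap. The member count of 12 lower regions became 3 with only regions averaging 20 or more and 3 among peaks of at least median score (45 and 60 member regions tested), and 3 to 17 when 1 library was left out. The count of 4 higher became 1 without centring, 2 with links within 10 kb, 8 with the replicate block and 0 to 6 when 1 library was left out.

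Over all shared regions, the 4240 higher became 2562 without centring, 1963 with regions averaging 20 or more, 2488 with the score filter and 1257 to 5174 with 1 library left out. The 5995 lower became 1953, 2232 and 1402 to 8123 under the latter 3. Lower calls were 58.6% of all calls, 50.6% with quantile normalisation, 64.5% without centring, 49.9% with regions averaging 20 or more and 47.3% with the score filter. Fewer regions are tested under both filters; the cause of the other shifts was not tested. The 2 regions with peaks in dKO alone became 0 with the score filter and 3 to 15 with 1 library left out, and the 0 with peaks in control alone became 2 and 0 to 3.

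Deviations of same-numbered libraries had correlations of 0.15, -0.03 and 0.23, and those of differently numbered libraries -0.23 to 0.16. With 3 libraries per group, these values cannot decide whether the numbers pair the libraries. With the replicate block 14 member regions were lower and 8 higher (14.3% and 10.5% of all shared regions), and all 16 calls remained. Of the 16, 3 remained without dKO 1, 3 without dKO 2 and 15 without dKO 3. Depth is unknown, and sites below the peak caller's limits were not measured.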
